A study of Mus musculus with 16 samples.

Results

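Proliferation in adipose tissue was followed through 44 genes of DNA replication and cell division, taken from a list of gene symbols. The list uses no measured value as a criterion, but it was drawn up with earlier results of these data known. All 44 were present in the deposited count table, where they held 125 of the 130343 transcript entries and 44 of the 35556 gene symbols. Of these genes, 14 belong to DNA replication and the G1/S transition and 30 to G2 and mitosis. The 16 libraries of poly(A)-selected RNA came from 8 male wild-type C57BL/6J mice, each of which gave inguinal subcutaneous adipose tissue (SAT) and mesenteric visceral adipose tissue (VAT). From 10 weeks of age the 4 lean mice ate a normal lab diet and the 4 obese mice a high fat diet with 42% of kcal given in the labels as saturated fat, and 0.2% cholesterol, for 12 to 14 months. The inguinal pads of both sides were pooled within a mouse, visible vessels were dissected away, and RNA came from whole tissue. The comparisons ask whether these genes differed with diet within each depot, between depots within each diet, and whether the diet response differed between depots.

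Dividing cells load the MCM helicase onto replication origins in G1 and fire them in S phase, when the sliding clamp PCNA holds the polymerases on DNA and ribonucleotide reductase supplies deoxynucleotides. Cyclin-dependent kinase 1 with cyclins A and B then drives entry into mitosis, where motor proteins build the spindle, kinetochores attach the chromosomes, and the anaphase-promoting complex triggers their separation. In adipose tissue, mature adipocytes rarely divide, whereas progenitors, endothelial cells, macrophages and lymphocytes can.

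The libraries held between 1256082 and 16614407 counts, and the 2 shallowest came from VAT, lean replicate 1 with 1256082 and obese replicate 1 with 2247737. In lean replicate 1 of VAT, 3 counts equalled 2.39 CPM, the count scaled to the total of the library, against 0.181 CPM in the deepest library. Levels are CPM after scaling by trimmed mean of M-values (TMM) factors, written TMM CPM. The TMM factors ran from 0.782 to 0.886 in SAT of obese mice and from 1.01 to 1.20 in VAT, so that without them the median log2 fold change of all features tested moved to -0.20 for diet in SAT, 0.01 for diet in VAT, 0.15 and 0.38 for depot in lean and obese mice, and 0.23 for the depot difference of the diet response, from medians between -0.02 and 0.02. All 10 adipocyte markers examined passed the filter on low counts, with a summed level between 15389 and 58343 TMM CPM, and mesothelial markers summed to at most 1.83 TMM CPM in SAT and at least 258 TMM CPM in VAT.

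The counts of a member went with the number of transcript entries that the table split it into. The 17 members with 1 entry, among them Pcna, Rrm1 and Mcm4, had 675 to 15206 counts each over the 16 libraries and together 94.8% of the 62987 counts of all members. The 27 members with 2 to 11 entries had 0 to 716 counts each, with a median of 32. Top2a, the topoisomerase that untangles chromosomes, had 1 count over its 4 entries, Mki67, the source of the Ki-67 proliferation antigen, had 59 over 2 entries, and Bub1, Cenpa, Ect2, Racgap1 and Kif23 had none. A count of 0 allows up to 0.181 CPM by total counts in the deepest library and 2.39 in the shallowest, for counting error only. Across the table, the 37.6% of protein-coding genes with 1 entry held 86.8% of the counts of such genes, but the median gene with 1 entry had 25 counts in all and the median gene with several entries had 38, an order opposite to that of the members. Low counts of members with several entries are not read as low expression here, and the counter's treatment of reads shared between entries is not given in the sources used here.

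**Figure D1:**
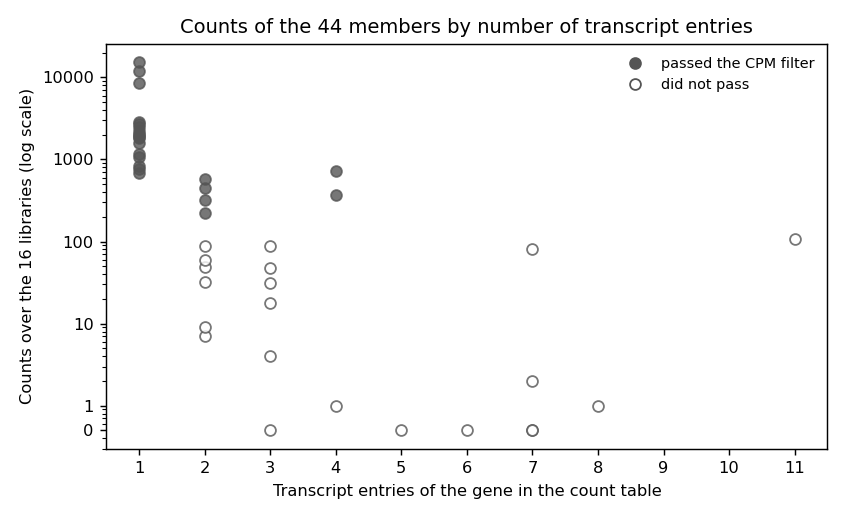
Total counts over the 16 libraries (log scale, with 0 drawn at the bottom) against the number of transcript entries in the count table, with 1 point for each of the 44 members. Filled points passed the filter of more than 1 CPM in at least 3 libraries. All 17 members with 1 entry lie at 675 counts or above and no member with several entries exceeds 716.

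After counts were summed per gene, 23 members passed the filter: all 17 with 1 entry, and Mcm3, Mcm6, Mcm7, E2f1, Birc5 and Anln. By class, 10 of the 14 replication and G1/S members and 13 of the 30 mitotic members were tested. The remaining 21 members summed to 2 to 70 counts per library. Their mean level by total counts was 3.35 CPM in SAT of lean mice, 3.53 in SAT of obese mice, 3.20 in VAT of lean mice and 6.17 in VAT of obese mice. With both shallow VAT libraries left out, of which lean replicate 1 held 2 counts and obese replicate 1 held 26, the VAT means were 3.73 and 4.37 CPM. Mki67 was at 0.668, 0.179, 0 and 0.440 TMM CPM in VAT of the 4 lean mice and at 1.53, 0.404, 0.655 and 0.665 in VAT of the 4 obese mice. In SAT it was at 0.167, 0, 0.192 and 0 in lean mice and at 0.458, 0.319, 0.549 and 0.466 in obese mice. The SAT groups did not overlap and the VAT groups did, on at most a few counts per library. Mcm5, a subunit of the MCM ring, had 4 counts in all.

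Many genes of this kind carry short promoter elements through which E2F factors and the DREAM and MuvB complexes are known to time their transcription. The RefSeq table of promoter windows (GRCm38.p6, 250 bases before to 50 after each transcription start) held 37 of the 44 members, not Mcm4, Ccne2, Ccna2, Aurkb, Foxm1, Tpx2 or Kif20a. The letters TTTGAA, the core of the cell cycle genes homology region (CHR), stood on either strand in 20 of 27 windows of mitotic members (74.1%), in 1 of 13 windows of replication and G1/S members (7.69%), and in 17.9% of all 32851 windows. The CCAAT box stood in 77.8% and 69.2% of the windows of the same classes and in 37.4% of all windows. TTTGGCGC or TTTCGCGC, full-length forms of the E2F site, stood in 1 of the 27 mitotic windows, in 4 of the 13 replication and G1/S windows and in 0.813% of all windows. These shares describe letters and not occupied sites. The stretches printed are the 140 bases before the start of 5 mitotic members called higher in VAT of obese mice, and of 4 replication members for contrast. They read 5′ to 3′ on the gene's strand, with the CHR core, the CCAAT box, the E2F forms and their reverse complements in capitals. In Mcm6 the first run of capitals is an overlap of both E2F forms.
Cdk1, chr10:69352913-69353052, minus strand: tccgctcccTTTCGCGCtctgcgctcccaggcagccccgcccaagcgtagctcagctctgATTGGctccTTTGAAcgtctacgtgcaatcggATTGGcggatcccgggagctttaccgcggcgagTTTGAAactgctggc
Ccnb2, chr9:70421555-70421694, minus strand: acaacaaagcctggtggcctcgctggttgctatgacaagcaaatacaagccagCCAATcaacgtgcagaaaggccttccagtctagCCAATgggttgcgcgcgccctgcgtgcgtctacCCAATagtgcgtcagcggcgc
Cdc20, chr4:118437344-118437483, minus strand: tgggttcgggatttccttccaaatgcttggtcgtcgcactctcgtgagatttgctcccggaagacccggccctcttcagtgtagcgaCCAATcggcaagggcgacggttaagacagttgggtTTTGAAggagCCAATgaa
Kif11, chr19:37376242-37376381, plus strand: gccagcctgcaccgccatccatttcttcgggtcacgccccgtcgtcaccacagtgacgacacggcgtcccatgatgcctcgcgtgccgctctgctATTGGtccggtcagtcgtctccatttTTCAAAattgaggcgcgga
Ube2c, chr2:164769789-164769928, plus strand: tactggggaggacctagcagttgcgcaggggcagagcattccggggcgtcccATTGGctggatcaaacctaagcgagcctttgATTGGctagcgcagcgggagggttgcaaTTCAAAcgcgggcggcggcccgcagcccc
Mcm2, chr6:88898781-88898920, minus strand: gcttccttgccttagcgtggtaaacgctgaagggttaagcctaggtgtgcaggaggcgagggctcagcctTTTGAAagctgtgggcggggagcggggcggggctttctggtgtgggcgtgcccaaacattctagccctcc
Pcna, chr2:132253181-132253320, minus strand: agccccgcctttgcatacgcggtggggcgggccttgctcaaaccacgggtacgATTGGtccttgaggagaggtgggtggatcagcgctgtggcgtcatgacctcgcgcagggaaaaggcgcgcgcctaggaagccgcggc
Rrm1, chr7:102441555-102441694, plus strand: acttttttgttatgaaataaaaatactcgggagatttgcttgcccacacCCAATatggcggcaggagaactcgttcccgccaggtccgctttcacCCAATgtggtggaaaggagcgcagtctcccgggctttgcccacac
Mcm6, chr1:128359706-128359845, minus strand: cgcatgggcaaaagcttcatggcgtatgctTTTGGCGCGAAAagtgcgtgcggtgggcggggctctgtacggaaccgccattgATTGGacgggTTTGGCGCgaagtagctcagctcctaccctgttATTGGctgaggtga
Cdk1 held 2 CHR cores, 2 CCAAT boxes and 1 E2F form in this stretch. Ccnb2 held 3 CCAAT boxes, with CHR cores outside the stretch shown. Among the replication members shown, Mcm2 alone held a CHR core and Mcm6 alone held E2F forms.

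Summed over all 44 members, expression was higher in obese than in lean mice in both depots. The sum was 346, 352, 307 and 338 TMM CPM in VAT of lean mice (336 ± 19.8, mean ± SD, n = 4) and 708, 490.2, 455 and 597 in VAT of obese mice (563 ± 114, n = 4), a ratio of the means of 1.68. In SAT it was 319, 299, 299 and 343 in lean mice (315 ± 20.9, n = 4) and 396, 399, 431 and 374 in obese mice (399.9 ± 23.3, n = 4), a ratio of 1.27. In neither depot did the obese and lean values overlap on this scale. By total counts alone, without TMM factors, the values did overlap in SAT, at 279.6 to 349 CPM in lean and 292 to 378 in obese mice, and the log2 ratio there was 0.14 in place of 0.34. In VAT they stayed apart by total counts, at 310.2 to 412 and 469 to 825 CPM. In bulk tissue, more cells of a dividing type and more RNA of these genes per cell cannot be told apart.

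The sum of all members was carried by Pcna, Rrm1 and Mcm4, which held 24.1%, 18.9% and 13.7% of the members' counts, so the classes were also summed apart. The 30 mitotic members summed to 69.3 ± 12.6 TMM CPM in VAT of lean mice and 188 ± 64.4 in VAT of obese mice (ratio 2.71), and to 83.2 ± 14.9 and 126 ± 19.1 in SAT (ratio 1.51). The 14 replication and G1/S members stood at 266 ± 12.8 and 375 ± 50.9 TMM CPM in VAT of lean and obese mice (ratio 1.41) and at 232 ± 11.8 and 274 ± 11.2 in SAT (ratio 1.18). Obese replicate 1 of VAT, the second shallowest library, had the highest sum of both classes, 276 TMM CPM for the mitotic members against 131 to 194 in the other 3 obese libraries. With both shallow VAT libraries left out, the log2 ratio of the sum of all members in VAT was 0.63, against 0.74 with them.

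**Figure D2:**
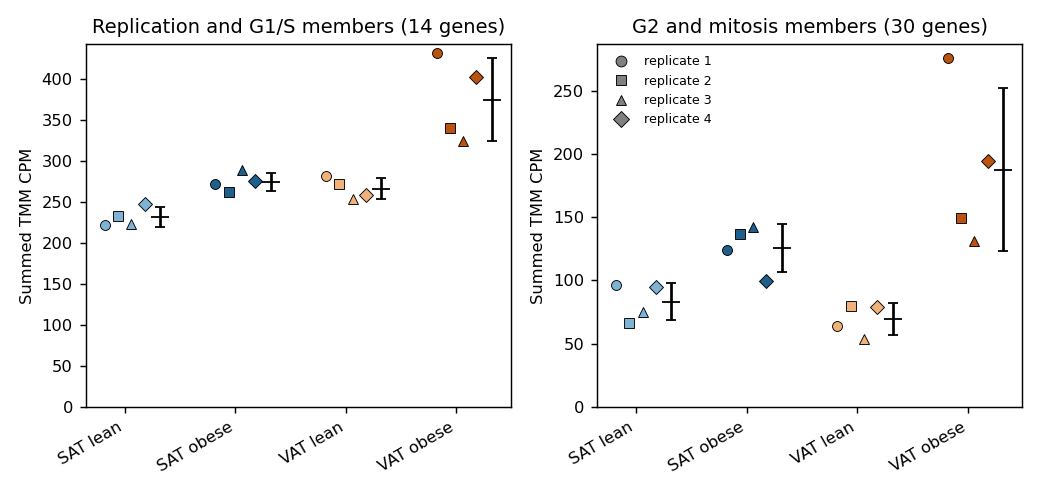
Summed TMM CPM of the 14 replication and G1/S members (left) and the 30 mitotic members (right) in each library, by depot and diet. Points are libraries with a shape per replicate number, and the bar beside them is the mean ± SD (n = 4). The obese libraries of VAT lie above the lean ones in both panels, with means of 375 against 266 and 188 against 69.3 TMM CPM.

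In VAT, 17 of the 23 members tested were higher in obese than in lean mice and none was lower, at an adjusted p under 0.05 in edgeR's quasi-likelihood test. Over all 12185 features tested, 6.89% were called higher and 5.28% lower. The median log2 fold change of the 23 members was 1.22, against -0.02 over all features. In 15 members every obese library lay above every lean one, which held for 7.98% of all features. Past a log2 fold change of 1.5, the limit that the study used, were 6 members (Rrm2, Ccna2, Ccnb2, Cdc20, Ndc80 and Kif11), with 2.25% of all features called there. By class, 12 of the 13 mitotic members tested were called higher (median log2 fold change 1.47), and 5 of the 10 replication and G1/S members (median 0.52). The calls also went with the number of entries. Of the 17 members with 1 entry 16 were called (median 1.36), and of the 6 tested members with several entries 1 was, Birc5 (median 0.63). Among members with 1 entry, 11 of 11 mitotic and 5 of 6 replication and G1/S members were called (medians 1.48 and 0.44). Birc5 did not pass the filter in the lean libraries alone, and 16 of the other 22 members were called (median 1.17).

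**Figure D3:**
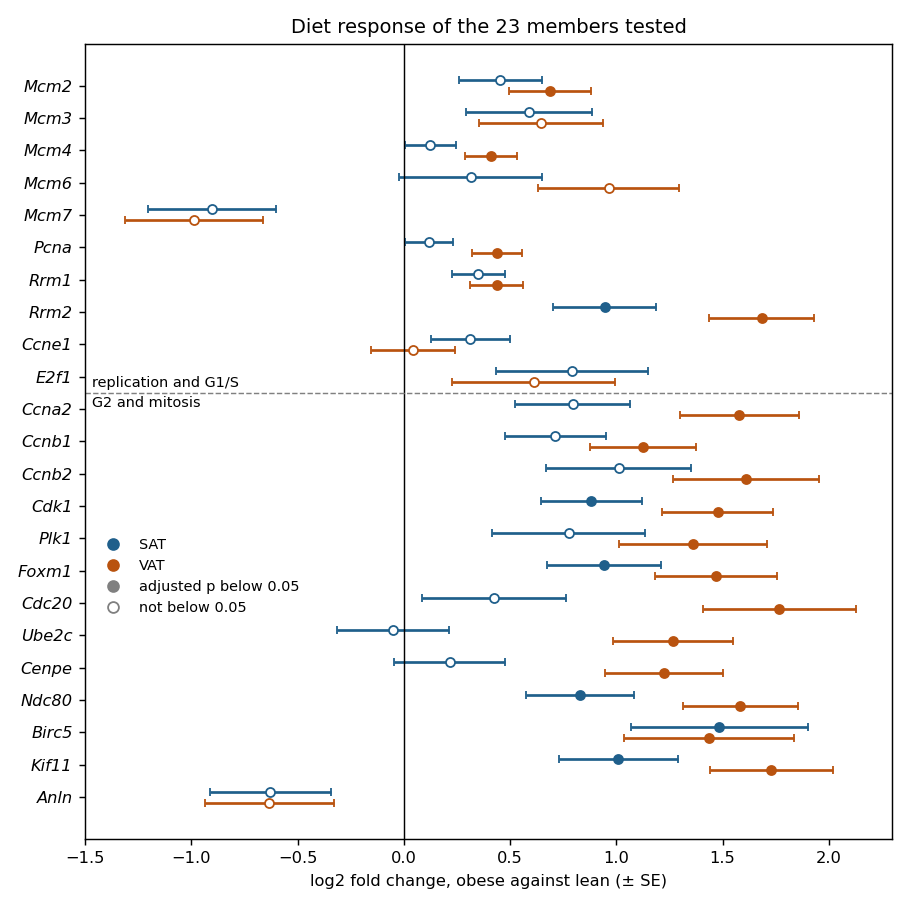
Log2 fold change of obese against lean mice (± SE) in SAT and VAT for the 23 members tested, with replication and G1/S members above the dashed line and mitotic members under it. Filled points had an adjusted p under 0.05 in edgeR's quasi-likelihood test. In VAT 17 points are filled, all to the right of 0, and in SAT 6.

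Of the MCM subunits tested, which belong to the replicative helicase, Mcm2 and Mcm4 were called. Mcm4 was at 50.1, 61.5, 56.1 and 48.7 TMM CPM in VAT of the lean mice and at 77.9, 65.7, 70.3 and 76.2 in VAT of the obese mice. Every obese library was above every lean one, with a log2 fold change of 0.41 ± 0.12 (SE; edgeR adjusted p = 0.028). Mcm2 was at 27.4, 16.5, 15.7 and 16.5 TMM CPM in lean and 34.0, 26.8, 23.7 and 32.5 in obese mice. Lean replicate 1, the shallowest library, stood apart from the other 3 lean libraries and overlapped the obese ones, and the log2 fold change was 0.69 ± 0.19 (edgeR adjusted p = 0.0224).

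The other MCM subunits had few counts and were not called. Mcm3 was at 2.67, 3.17, 3.35 and 3.30 TMM CPM in VAT of lean mice and 3.05, 5.26, 3.83 and 7.07 in VAT of obese mice, a log2 fold change of 0.65 ± 0.29. Mcm6 was at 0.668, 2.27, 1.51 and 3.41 TMM CPM in lean and 2.67, 3.48, 4.58 and 5.99 in obese mice, a log2 fold change of 0.96 ± 0.33 (edgeR adjusted p = 0.0636), and its groups also overlapped. Mcm7 had the opposite sign from the other subunits. It was at 3.34, 3.17, 2.48 and 3.30 TMM CPM in lean and 0.764, 1.94, 1.59 and 1.33 in obese mice, with all obese libraries under all lean ones and a log2 fold change of -0.99 ± 0.33 (edgeR adjusted p = 0.0513). In SAT, Mcm7 was at 2.33, 4.51, 3.26 and 3.85 TMM CPM in lean and 0.993, 2.34, 1.99 and 2.02 in obese mice, a log2 fold change of -0.90 ± 0.30 (edgeR adjusted p = 0.0549), with overlap in 1 library of each group. Mcm7 has 4 entries, and it was called lower in SAT in 8 of 18 alternatives (edgeR adjusted p from 0.0151 to 0.179 over them, limma and DESeq2 included).

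At the replication fork, the 3 members tested were called higher in VAT of obese mice, of which Rrm2 alone was also called without the filter on low counts. Rrm2, the small subunit of ribonucleotide reductase and the one made in S phase, was at 10.0, 6.75, 5.83 and 10.8 TMM CPM in lean mice and 38.9, 18.4, 20.2 and 28.4 in obese mice. The lowest obese library was well above the highest lean one, and the log2 fold change of 1.68 ± 0.25 had the smallest p of the 23 members tested (edgeR adjusted p = 0.000109). Rrm1, the large subunit of the same enzyme, was at 63.3 to 78.9 TMM CPM in lean mice and 80.3 to 115 in obese mice, a log2 fold change of 0.44 ± 0.13 (edgeR adjusted p = 0.0244). Pcna was at 104, 86.9, 86.8 and 87.1 TMM CPM in lean mice and 142, 112, 105 and 134 in obese mice. Its groups were separated by a narrow margin, lean replicate 1 being nearest to the obese libraries, and its log2 fold change was 0.44 ± 0.12 (edgeR adjusted p = 0.0147). Tyms and Tk1, which make thymidine nucleotides, had 2 and 31 counts in all and were not tested.

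Of the G1/S control genes, neither of the 2 tested was called. Ccne1, the cyclin that starts S phase with CDK2, was at 8.68, 10.3, 16 and 13.5 TMM CPM in VAT of lean and 14.9, 11, 13.1 and 13.4 in VAT of obese mice, a log2 fold change of 0.04 ± 0.20. E2f1, a transcription factor of S phase genes, was at 1.34, 1.37, 1.94 and 1.21 TMM CPM in lean and 3.05, 2.67, 1.68 and 2.08 in obese mice, a log2 fold change of 0.61 ± 0.38 (edgeR adjusted p = 0.358). In both genes the groups overlapped.

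All 6 cyclins, kinases and regulators of the S to M transition that passed the filter were called higher in VAT of obese mice. Cdk1, the kinase that starts mitosis, was at 3.34, 5.44, 3.02 and 7.26 TMM CPM in lean mice and 17.2, 12.4, 10.8 and 16.8 in obese mice, a log2 fold change of 1.48 ± 0.26 (edgeR adjusted p = 0.000668). Its groups did not overlap. Ccna2, the cyclin of S and G2 phase, was at 6.68, 12.3, 7.23 and 10.7 TMM CPM in lean and 38.2, 25.3, 22.0 and 32.3 in obese mice, again without overlap, with a log2 fold change of 1.58 ± 0.28 (edgeR adjusted p = 0.000668). The mitotic cyclin Ccnb1 was at 4.67, 5.97, 3.78 and 5.5 TMM CPM in lean and 16.8, 8.01, 8.32 and 13.1 in obese mice, and Ccnb2, its close relative, at 4.01, 4.96, 1.84 and 5.06 in lean and 14.5, 10.4, 9.45 and 15.3 in obese mice. Both cyclins B were higher in each obese library than in any lean one, with log2 fold changes of 1.13 ± 0.25 and 1.61 ± 0.34 (edgeR adjusted p = 0.00421 and 0.00327).

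Foxm1, the transcription factor of G2 and M phase genes, was at 12.0, 5.73, 4.53 and 4.62 TMM CPM in lean and 23.7, 15.8, 10.6 and 16.1 in obese mice, a log2 fold change of 1.47 ± 0.29 (edgeR adjusted p = 0.00154). The value in lean replicate 1 was more than that of the lowest obese library, so the groups overlapped. Plk1, a kinase of mitotic entry and spindle poles, was at 4.67, 4.12, 2.05 and 3.41 TMM CPM in lean and 16.4, 7.44, 5.71 and 7.90 in obese mice, a log2 fold change of 1.36 ± 0.35 (edgeR adjusted p = 0.0118), and obese replicate 1 was far above the other 3 obese libraries.

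The members of anaphase, the kinetochore and the spindle that were tested were called as well. Cdc20, the activator of the anaphase-promoting complex, was at 1.34 to 3.70 TMM CPM in lean and 5.34 to 18.3 in obese mice, with the largest fitted log2 fold change of the 23 members tested, 1.77 ± 0.36 (edgeR adjusted p = 0.00231). Ube2c, the ubiquitin-conjugating enzyme of the same complex, was at 4.67 to 7.81 TMM CPM in lean and 13.4 to 29.4 in obese mice (log2 fold change 1.27 ± 0.28, edgeR adjusted p = 0.00448). Kif11, the motor that pushes spindle poles apart, was at 8.68, 9.56, 4.53 and 9.02 TMM CPM in lean and 43.5, 20.7, 17.6 and 26.4 in obese mice, without overlap, a log2 fold change of 1.73 ± 0.29 (edgeR adjusted p = 0.000395).

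Ndc80, the microtubule-binding subunit of the kinetochore, was at 5.34, 2.99, 1.62 and 2.53 TMM CPM in lean and 9.16, 7.44, 6.55 and 9.48 in obese mice, a log2 fold change of 1.58 ± 0.27 (edgeR adjusted p = 0.000454). Cenpe, a kinetochore motor, was at 4.01 to 10.3 TMM CPM in lean and 12.2 to 32.1 in obese mice (log2 fold change 1.22 ± 0.28, edgeR adjusted p = 0.00492). In both, the lowest obese library was above the highest lean one. Birc5, the survivin subunit of the chromosomal passenger complex, was at 0, 0.956, 0.864 and 0.880 TMM CPM in lean and 3.05, 2.43, 1.22 and 2.83 in obese mice, a log2 fold change of 1.44 ± 0.40 (edgeR adjusted p = 0.0204). Birc5 was under 1 TMM CPM in all 8 lean libraries of both depots and above it in all 8 obese ones, so it passed the filter through the obese group. Without the filter its call was lost in VAT and held in SAT (edgeR adjusted p = 0.0536 and 0.0388). Anln, a cytokinesis scaffold and the one mitotic member tested that was not called, was at 3.34 to 6.38 TMM CPM in lean and 2.16 to 5.01 in obese mice (log2 fold change -0.63 ± 0.30). Nuf2, the partner of Ndc80, did not pass the filter, with 89 counts in all. Without the filter its log2 fold change in VAT was 2.43 ± 0.76 (edgeR adjusted p = 0.0308).

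**Figure D4:**
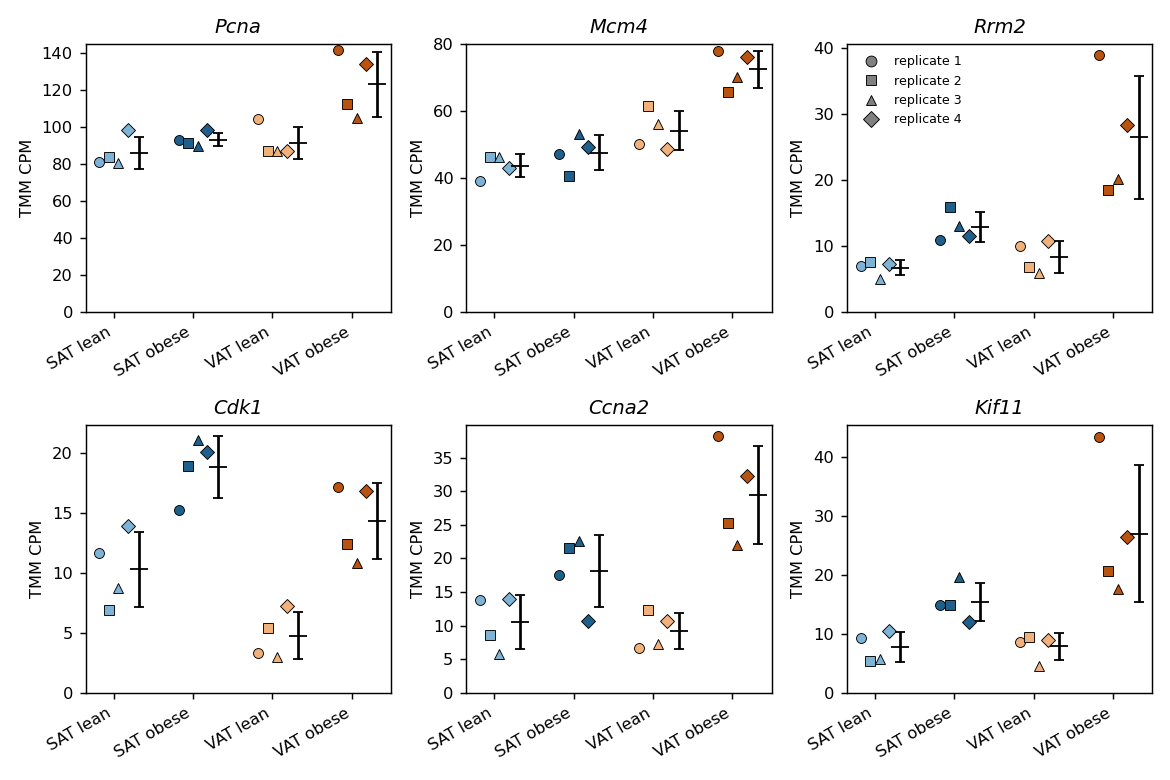
TMM CPM in each library of 3 replication members (Pcna, Mcm4, Rrm2) and 3 mitotic members (Cdk1, Ccna2, Kif11), by depot and diet, each axis starting at 0. Points are libraries with a shape per replicate number, and the bar beside them is the mean ± SD (n = 4). In VAT the obese libraries lie above the lean ones in all 6 panels, and in SAT only in those of Rrm2, Cdk1 and Kif11.

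Leaving out 1 mouse at a time kept 13 to 17 calls in VAT, all of them higher. Calls were lost for Mcm2 (without lean replicate 2, 3 or 4 or obese replicate 4), Mcm4 (lean replicate 4, obese replicate 1 or 4), Rrm1 (lean replicate 3 or 4, obese replicate 1 or 4), Plk1 (lean replicate 3) and Birc5 (obese replicate 2 or 4). With both shallow VAT libraries left out, 15 members were called, and Mcm4 and Rrm1 were not among them. Without the filter on low counts, 14 members were called, one of them Nuf2, and the calls of Mcm4, Pcna, Rrm1 and Birc5 were lost (edgeR adjusted p = 0.210, 0.108, 0.136 and 0.0536). With only the 8 libraries of VAT in the fit, Rrm1 and Birc5 lost theirs.

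In SAT, 6 of the 23 members were higher in obese than in lean mice and none was lower (Mcm7 was in 8 of 18 alternatives), where 6.35% of all features were called higher and 5.25% lower. The 6 were Rrm2, Cdk1, Kif11, Birc5, Foxm1 and Ndc80, and each of them was called in VAT as well. Without Birc5, which passed the filter through the obese libraries, they were 5 of 22. None passed a log2 fold change of 1.5, which 1.37% of all features did upward. The median log2 fold change of the members was 0.59, against 0.00 over all features. Rrm2 was at 6.92, 7.61, 4.98 and 7.27 TMM CPM in SAT of lean mice and at 10.9, 15.9, 13.0 and 11.4 in SAT of obese mice, without overlap, a log2 fold change of 0.95 ± 0.24 (edgeR adjusted p = 0.0134). Cdk1 was at 11.7, 6.90, 8.72 and 13.9 TMM CPM in lean and 15.2, 18.9, 21.1 and 20.0 in obese mice, also apart, with a log2 fold change of 0.88 ± 0.24 (edgeR adjusted p = 0.0178).

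The spindle and kinetochore genes called in SAT likewise separated the groups. Kif11 was at 9.41, 5.35, 5.75 and 10.5 TMM CPM in lean and 15, 15, 19.7 and 12.0 in obese mice, a log2 fold change of 1.01 ± 0.28 (edgeR adjusted p = 0.0219). Ndc80 was at 3.75, 2.96, 2.68 and 2.35 TMM CPM in lean and 4.97, 6.59, 5.28 and 4.58 in obese mice, a log2 fold change of 0.83 ± 0.26 (edgeR adjusted p = 0.0377). Foxm1 was at 7.75, 6.20, 5.08 and 5.77 TMM CPM in lean and 15.8, 13.4, 10.6 and 8.24 in obese mice, a log2 fold change of 0.94 ± 0.27 (edgeR adjusted p = 0.0254), with its lowest obese library just above the highest lean one. Birc5 was at 0.417, 0.564, 0.862 and 0.427 TMM CPM in lean and 1.99, 1.49, 1.78 and 1.32 in obese mice, a log2 fold change of 1.49 ± 0.42 (edgeR adjusted p = 0.023).

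No cyclin or MCM subunit was called in SAT, nor was Pcna. Ccna2 was at 13.8, 8.59, 5.84 and 13.9 TMM CPM in lean and 17.6, 21.6, 22.6 and 10.7 in obese mice (log2 fold change 0.79 ± 0.27, edgeR adjusted p = 0.0595), and Ccnb1 at 5.92, 4.09, 4.79 and 5.13 in lean and 8.71, 7.55, 10.0 and 6.53 in obese mice (log2 fold change 0.71 ± 0.24, edgeR adjusted p = 0.0562). The values of Ccna2 overlapped in SAT and those of Ccnb1 did not. Pcna was at 80.8, 83.7, 80.7 and 98.3 TMM CPM in lean and 92.7, 91.3, 89.9 and 98.1 in obese mice (log2 fold change 0.12 ± 0.11), and Mcm4 at 39.1, 46.4, 46.2 and 43.0 in lean and 47.1, 40.6, 53.3 and 49.1 in obese mice (log2 fold change 0.13 ± 0.12), with overlap in both and the opposite sign without TMM factors (-0.091 and -0.078). Mcm2 was at 13.3, 10.4, 10.5 and 9.62 TMM CPM in lean and 18.7, 15.3, 15.6 and 11 in obese mice, a log2 fold change of 0.45 ± 0.19. Among defining members with several entries, Mcm3 was at 2.83, 1.55, 2.78 and 1.5 TMM CPM in lean and 4.43, 3.08, 3.84 and 2.25 in obese mice, Mcm6 at 1.5, 2.96, 2.11 and 1.28 in lean and 2.98, 2.34, 2.40 and 2.10 in obese mice, and E2f1 at 1.75, 1.41, 1.53 and 1.28 in lean and 1.83, 4.57, 3.09 and 1.24 in obese mice, and all 3 overlapped between the diets. Ube2c, called in VAT, was at 6.06 to 14.6 TMM CPM in lean and 7.93 to 14.1 in obese mice in SAT, a log2 fold change of -0.05 ± 0.26 whose sign changed with the mouse left out.

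Leaving out 1 mouse at a time gave 1 to 8 calls in SAT, and Rrm2 was called each time. Without lean replicate 2, 1 member was called (Rrm2), and without lean replicate 3, lean replicate 4, obese replicate 1 or obese replicate 3, 3 were. Ndc80 lost its call in 6 of the 8 fits (all but those without lean replicate 1 or obese replicate 4) and Foxm1 in 5 (without lean replicate 2, 3 or 4 or obese replicate 1 or 2). Birc5 lost it without lean replicate 1, 2 or 4 or obese replicate 1, Kif11 without lean replicate 2 or 3 or obese replicate 3, and Cdk1 without lean replicate 2 or obese replicate 3. Over all 18 alternatives, Ccna2, Ccnb1 and Ccnb2, which were not called, were so in 6, 5 and 5. DESeq2 called 11 members, 10 of them higher, and without TMM factors 1 was called higher (Birc5) and 2 lower (Mcm7 and Anln).

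The difference between these responses was tested directly as the depot difference of the diet response. No member passed an adjusted p of 0.05, where 0.854% of all features were called with a higher log2 fold change in VAT than in SAT and 1.62% with a lower one. At an unadjusted p under 0.05 there were 5 members, against 15.1% of all features. The median over the members was 0.46 on the log2 scale, against 0.00 over all features. The members with the smallest p, named after their values were seen, were Ube2c at 1.22 ± 0.34 (log2, VAT minus SAT; edgeR adjusted p = 0.0621), Cenpe at 1.07 ± 0.35 (edgeR adjusted p = 0.116) and Cdc20 at 1.29 ± 0.50 (edgeR adjusted p = 0.197). Ube2c was called without lean replicate 2 (1.58), without obese replicate 2 (1.5), by DESeq2 (1.26), without the filter (1.15) and without TMM factors (1.47). A larger response of the members in VAT is thus not shown gene by gene, and their calls in VAT and SAT do not by themselves show that the depots differ.

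Between the depots of lean mice, 2 members differed, and the mouse was a block in this fit. Over all features, 8.67% were called higher in VAT and 7.22% lower, so that the counts of members, 1 in each direction of 23 tested, lay near or under the background. Mcm2 was higher in VAT than in SAT in 4 of 4 lean mice, with a log2 fold change of 0.75 ± 0.18 (edgeR adjusted p = 0.00607), and Cdk1 was lower in VAT in 4 of 4, with a log2 fold change of -1.02 ± 0.24 (edgeR adjusted p = 0.0058). The values of Mcm2 did not overlap between the depots. Those of Cdk1 did, and its call was lost without lean replicate 3, where 1 member was called. The sum of all members was 1.07 times that in SAT, with the replication and G1/S class at 1.15 and the mitotic class at 0.833 times the SAT level.

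In obese mice, 10 members were higher in VAT than in SAT and 1 was lower, against 16.3% and 15.1% of all features. The sum of all members in VAT was 1.41 times that in SAT, a log2 ratio of 0.49, which was 0.87 by total counts without TMM factors. The 10 were Mcm2, Mcm4, Pcna, Rrm1 and Rrm2 of the replication members and Ccna2, Ccnb2, Plk1, Ube2c and Kif11 of the mitotic ones. None passed a log2 fold change of 1.5, which 6.32% of all features did upward. Mcm2 had the smallest p, with a log2 fold change of 0.95 ± 0.17 (edgeR adjusted p = 0.00017), followed by Mcm4 at 0.61 ± 0.11 (edgeR adjusted p = 0.000305) and Rrm2 at 0.98 ± 0.21 (edgeR adjusted p = 0.00138). Each of the 3 was higher in VAT in 4 of 4 mice, and no SAT library reached any VAT library.

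Plk1 was at 4.89, 4.15, 4.05 and 1.63 TMM CPM in SAT of obese mice, all under its values in VAT given above, with a log2 fold change of 1.3 ± 0.29 (edgeR adjusted p = 0.00168). Ccnb2 was at 6.03, 8.40, 8.85 and 3.89 TMM CPM there, a log2 fold change of 0.88 ± 0.27 (edgeR adjusted p = 0.0169), and Pcna had a log2 fold change of 0.39 ± 0.11 (edgeR adjusted p = 0.0101). Ccne1, the one member that was lower, was at 19.5, 19.9, 19.0 and 23.4 TMM CPM in SAT of obese mice, above every VAT library of the same mice, a log2 fold change of -0.66 ± 0.17 (edgeR adjusted p = 0.00463). In lean mice the VAT value of Ccne1 was under the SAT value in 4 of 4 mice too, a log2 fold change of -0.39 ± 0.18 that was not called (edgeR adjusted p = 0.15), and the depot difference of its diet response was -0.27 ± 0.24 (edgeR adjusted p = 0.669). The count of calls was 7 without obese replicate 1 and 6 without obese replicate 4, with Rrm1, Ccna2, Ccnb2, Ube2c and Kif11 lost in each case. With both shallow VAT libraries left out it was 8, without the same 5 (6 higher and 2 lower), and without TMM factors it was 17, all higher. Without the filter on low counts Pcna and Rrm1 lost this call (edgeR adjusted p = 0.0936 and 0.124). The diet comparison in VAT and this one share the obese VAT libraries.

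Other genes of the same processes were followed through 3 lists of no overlap with the members. Among 60 other mitotic genes, 20 were tested, and 7 were higher and none lower in VAT of obese than of lean mice, with a median log2 fold change of 1.05, where 6.89% and 5.28% of all features were called. The 5 with the smallest p were Stmn1, a microtubule destabilizer, at 1.07, Ncaph, a condensin subunit, at 1.11, Cdca8, the borealin of the chromosomal passenger complex, at 1.32, Cdca5, the cohesin protector sororin, at 1.71, and Kif15, a spindle motor, at 1.26 (edgeR adjusted p = 0.000495, 0.00182, 0.00311, 0.00332 and 0.00352). In SAT, 2 of the 20 were higher, Ncaph at 1.15 ± 0.21 and the centrosomal kinase Nek2 at 1.40 ± 0.40, and 1 was lower, the separase inhibitor Pttg1 at -1.0 ± 0.21 (edgeR adjusted p = 0.001, 0.0242 and 0.0031). Nek2 passed the filter only with the obese libraries counted. It kept its call in 13 of 18 alternatives, the fit without the filter included (edgeR adjusted p = 0.0439). These SAT counts of 2 higher and 1 lower lay near the shares of all features, 6.35% and 5.25%, and the median in SAT was 0.30. The summed level of the list did not follow its median, at 733 ± 113 TMM CPM in VAT of lean and 698 ± 46.8 in VAT of obese mice, since the tubulin gene Tuba1b held most of it. Between depots, 4 were lower in VAT of lean mice (Tuba1b, Cks2, Sgo2a and Stmn1), where 7.22% of all features were, and 7 were higher in VAT of obese mice, where 16.3% of all features were, with Cdca8, Kif15, Pttg1, Mad2l1 and Cdca5 having the smallest p.

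Among 47 other replication genes, 28 were tested. In VAT 4 were higher in obese mice and none lower, against 6.89% and 5.28% of all features, with a median log2 fold change of 0.15. They were the nucleoside kinase Dck at 0.68 ± 0.12, the licensing factor Cdt1 at 1.32 ± 0.33, the DNA ligase Lig1 at 1.09 ± 0.35 and the origin recognition subunit Orc4 at 1.44 ± 0.46 (edgeR adjusted p = 0.000879, 0.00976, 0.0437 and 0.044). Lig1 and Orc4 kept this call in 7 and 6 of 18 alternatives, and both lost it without the filter (edgeR adjusted p = 0.155 and 0.192). Orc4 passed the filter only with the obese libraries counted. In SAT none was higher and 1 was lower, the clamp loader subunit Rfc1 at -1.5 ± 0.45 (edgeR adjusted p = 0.0319), which kept its call in 10 of 18. Between depots, 2 were higher and 1 lower in VAT of lean mice, against 8.67% and 7.22% of all features, and 5 were higher and 2 lower in obese mice, against 16.3% and 15.1%, so that these counts lay near or under the background.

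Of 32 inhibitors, pocket proteins and G1 cyclins, 17 were tested, and none was higher with diet in either depot. In VAT 1 was lower and in SAT 2 were, where 5.28% and 5.25% of all features were called lower and 6.89% and 6.35% higher, so that these counts lay near the background. Cdkn2c, the inhibitor p18 of CDK4 and CDK6, was lower in obese mice in both. It was at 92.1, 89.8, 117 and 122 TMM CPM in VAT of lean mice and 71.0, 51.6, 46.1 and 36.6 in VAT of obese mice, and at 126, 147, 185 and 156 in SAT of lean and 85.4, 69.7, 49.8 and 64.5 in SAT of obese mice. The diets did not overlap in either depot, with log2 fold changes of -1.07 ± 0.19 in VAT and -1.19 ± 0.18 in SAT (edgeR adjusted p = 0.000544 and 0.000169). The repressor E2f6 was also lower in SAT of obese mice, at -1.28 ± 0.39 (edgeR adjusted p = 0.0364), and kept this call in 11 of 18 alternatives. In lean mice 2 of the 17, Cdkn2c and Btg1, were lower in VAT than in SAT, against 7.22% of all features. In obese mice 3 of the 17 were higher in VAT than in SAT (Cdk4, Cdkn1b and E2f4) and 4 were lower (Cdkn2b, Rb1, Cdkn2c and Ccng1), where 16.3% and 15.1% of all features were called, so that both counts lay near the background.

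Markers of other cell types moved with the same comparison, in which 6.89% of all features were called higher and 5.28% lower. In VAT, 9 of 10 macrophage markers tested were higher in obese mice, with Lyz2, Mrc1 and Csf1r the most abundant, and their summed level was 2569 to 3294 TMM CPM in lean mice and 5582 to 7865 in obese mice. Of 11 markers of lipid-associated macrophages, 8 were higher and 1 lower, the latter being Lpl, which adipocytes also express and which leads the list's sum. That sum was lower in obese mice, at 16231 to 18989 TMM CPM against 22146 to 28922 in lean mice. T cell markers (5 of 7 higher) summed to 27.1 to 56.1 TMM CPM in lean and 72.4 to 131 in obese mice, and germinal center B cell markers (3 of 6 higher, led in level by Basp1, Bcl6 and Fas, which other cells also express) to 24.9 to 46.9 and 52.9 to 94.3 in the same order. B cell markers (3 of 8 higher) summed to 45.1 to 332 TMM CPM in lean and 264 to 495 in obese mice, and plasma cell markers (2 of 4 higher) to 89.6 to 540.1 and 505 to 1750.0 in the same order, both with overlap. Each of the 60 markers of these lists that the table held had counts in at least 1 library. Between the depots of obese mice, 16.3% of all features were called higher in VAT than in SAT and 15.1% lower. There, 10 of 10 macrophage, 7 of 7 T cell and 8 of 8 B cell markers tested were higher in VAT. Of 11 markers of lipid-associated macrophages, 8 were higher and 2 lower. Of 10 adipocyte markers, none was higher and 6 were lower. The part of these markers in the results for the members was not tested.

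Markers of gut epithelium were not among those called higher. Intestinal epithelial markers were lower in VAT of obese mice in 3 of 8, and intestinal crypt markers in 0 of 4, with none higher in either list. Adipocyte markers were lower in 4 of 10 and higher in none, adipose progenitor markers were higher in 2 of 10, and none of the 9 endothelial or 7 mesothelial markers tested was called, with Pecam1, an endothelial marker of several entries, at 0 throughout. With lists this short, a count of 0 or 1 lay near the background of 6.89% higher and 5.28% lower. Exocrine pancreas (1 higher of 3), erythroid (1 higher of 6), keratinocyte and hair follicle (none of 3) and skeletal muscle markers (none of 3) completed the lists. Gut markers were uneven among the lean libraries of VAT. Crypt markers summed to 317 TMM CPM in replicate 2 and to 122 to 141 in the others. All 264 counts of the crypt marker Olfm4 lay in replicate 2. The bearing of this on the lean values of the members was not tested. In SAT, where 6.35% of all features were called higher and 5.25% lower, macrophage markers were higher in 7 of 10 and summed to 1479 to 2111 TMM CPM in lean and 2403 to 3331 in obese mice, T cell markers in 1 of 7, and B cell, germinal center B cell and plasma cell markers in none of 8, 6 and 4, counts near the background for all but the macrophage markers. Of 11 markers of lipid-associated macrophages, 3 were higher and 2 lower in SAT of obese mice. Their sum was lower there, at 34822 to 38186 TMM CPM against 45029 to 48462 in lean mice.

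**Figure D5:**
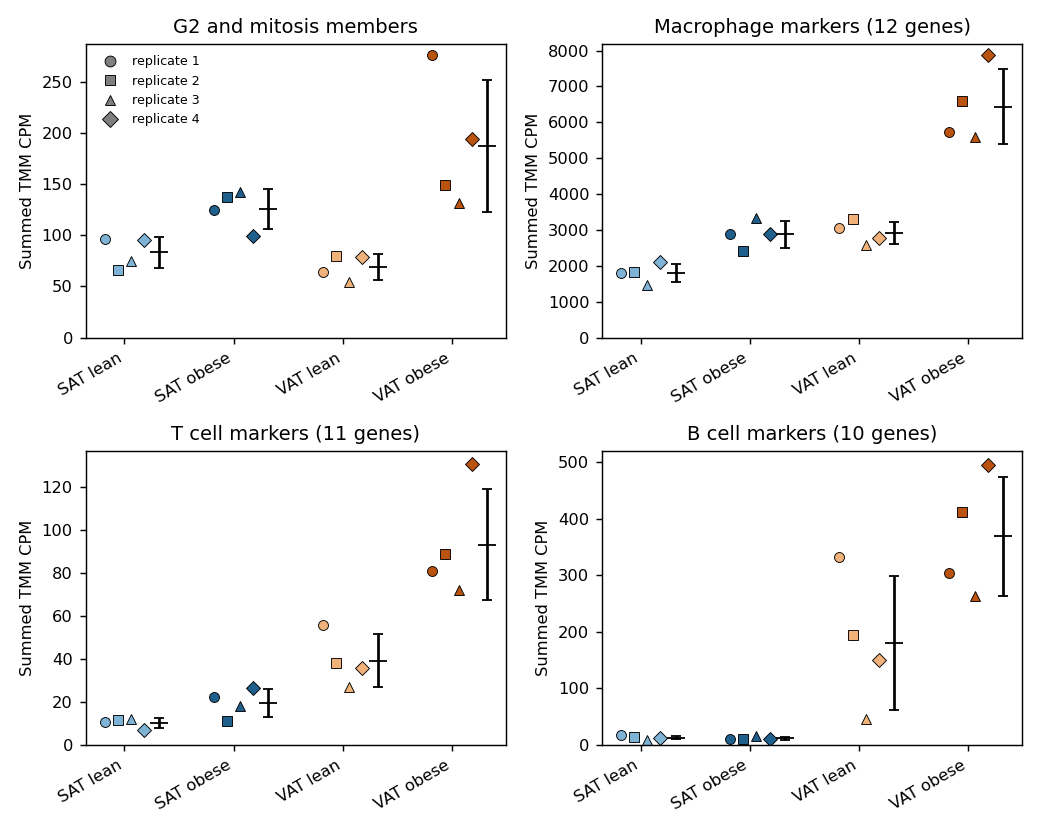
Summed TMM CPM of the 30 mitotic members and of the macrophage, T cell and B cell marker lists in each library, by depot and diet. Points are libraries with a shape per replicate number, and the bar beside them is the mean ± SD (n = 4). In VAT the macrophage and T cell sums separate the diets, as the mitotic sum does, and the B cell sums overlap.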

How the data were processed

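RNA of 16 libraries, 4 per group, had been sequenced as paired ends from a directional poly(A) kit. Per the submitters' processing notes, the authors used FastQC (0.11.9), Trim Galore (0.6.6), HISAT2 (2.2.0, GRCm39), SAMtools (1.11), bedtools (2.29.2), HTSeq (0.13.5) and edgeR (3.34.0). The strand setting is not given in the sources used here. The deposited table holds raw counts per RefSeq transcript and CPM, which the authors computed from each library's total count.

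Counts were summed per gene symbol. Entries without a symbol (15.2% of counts) stayed separate features. Of 59078 features, 12185 had more than 1 CPM in at least 3 libraries. The edgeR quasi-likelihood test (4.0.16, R 4.3.3, TMM, Benjamini-Hochberg over these features, threshold 0.05) fitted the 4 groups for diet, with the mouse added as a block for depot and for the depot difference of the diet response. The SE is the log2 fold change over the square root of F. For diet, p-values rest on the spread between these mice within groups, pooled over both depots, whose libraries entered the fit as independent. For depot and the depot difference, they rest on how the depot differences within a mouse varied between mice. Both depots of a mouse pair by the labels (correlation of deviations -0.0014 to 0.175 over 8 mice, against -0.155 to 0.117 between mice). No libraries of a group agreed within sampling noise. Fits were tested on simulated counts. Alternatives included DESeq2 (1.42.0) and limma (3.58.1). Members and lists were chosen with earlier results of these data known. By rule, values per library are given for defining members and for at most 6 called members per comparison and direction, and at most 5 called genes per list, comparison and direction are named.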

Additional observations from a re-analysis of the deposited data

Results flagged for a closer look

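In VAT of lean mice, replicate 1 lay far from the other 3 lean libraries in 5 members, on a gap between the extreme library and its neighbour that exceeded Dixon's critical value at the 95% level. Mcm2 was at 27.4 TMM CPM there, against 15.7 to 16.5 in the others. Pcna was at 104 TMM CPM, against 86.8 to 87.1, and Foxm1 at 12.0, against 4.53 to 5.73. Ube2c was lower, at 4.67 TMM CPM against 7.29 to 7.81. Birc5 was at 0, against 0.864 to 0.956 TMM CPM, where 3 counts of that library equal 2.39 CPM by total counts. This library was the shallowest of the 16, with 1256082 counts. In all, 104 groups of 4 libraries were examined, and chance flags about 1 in 20.

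Among the other cell cycle genes, of which 28, 20 and 17 were tested in the 3 lists, the diet response differed between the depots for 2, 1 in each direction. Of all features, 0.854% were called with a positive and 1.62% with a negative difference, so the count lay near the background. For Stmn1 the difference, VAT minus SAT, was 0.92 ± 0.22 on the log2 scale (edgeR adjusted p = 0.0303), and for Cdkn2b, the inhibitor p15 of CDK4 and CDK6, it was -0.95 ± 0.23 (edgeR adjusted p = 0.0308). They kept their calls in 12 and 8 of 17 alternatives. No cause of these differences was tested.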

How the results depend on the processing

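Of 1456 values of named genes under the alternatives, 1280 kept their direction and their side of the threshold, 128 lost a call, 39 gained one and 9 of genes not called changed sign. These were Mcm4 (-0.078) and Pcna (-0.091) for diet in SAT without TMM factors, Ube2c for diet in SAT in 4 of 8 fits with 1 mouse left out (-0.27 to 0.090 over the 8), and Ccne1 for diet in VAT in 2 of 8 (-0.039 to 0.23) and with both shallow libraries left out (-0.075). Leaving out 1 mouse at a time gave 1 to 8 calls for diet in SAT, 13 to 17 for diet in VAT, 1 to 3 for depot in lean mice, 6 to 13 for depot in obese mice and 0 to 1 for the depot difference of the diet response. The log2 ratio of the sum of all members then ran from 0.31 to 0.39, 0.61 to 0.83, 0.05 to 0.13, 0.36 to 0.62 and 0.27 to 0.53 in the same order. Requiring a log2 fold change beyond 1.5 left 0, 6, 0 and 0 calls in the first 4. Without TMM factors, an alternative added after the data were seen, there were 3 calls for diet in SAT (1 higher, 2 lower, against 6 and 0), 4 for depot in lean mice (3 higher, 1 lower, against 1 and 1), 17 for depot in obese mice and 1 for the depot difference. DESeq2 gave 11 calls for diet in SAT and 1 for the depot difference, and the absence of a filter 1 for the latter. With the replicate number as a block, diet in SAT gave 10 calls and diet in VAT 18, but across diets a number is no shared mouse (correlation of deviations -0.0929 to 0.172 over 8 pairs of equal number). With no replicate block, the depot fits gave 2, 9 and 0 calls. With both shallow VAT libraries left out, also added after the data were seen, calls were 9, 15, 2, 8 and 0. By total counts the log2 ratio of the sum was 0.14 for diet in SAT, 0.23 and 0.87 for depot in lean and obese mice and 0.63 for the depot difference, and as a mean of log2 values over members (pseudocount 0.5) it was -0.033 and 0.26 for depot. Over the replication and G1/S members it was 0.24 (SAT diet), 0.49 (VAT diet) and 0.20 (depot, lean), and over the mitotic members 0.59, 1.44, -0.26 and, for the depot difference, 0.84. The cause was not tested for these changes. The 21 members that did not pass the filter held 2 to 70 counts per library in all, so any value of a single one rests on few counts. Without the filter Nuf2 was the only one of them called, for diet in VAT (edgeR adjusted p = 0.0308).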
